A study of Mus musculus with 4 samples.

Results

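The major histocompatibility complex (MHC) class II genes and their activator Ciita were examined in mouse pancreatic tumours after inhibition of SUMOylation. The members were chosen by name as 10 genes of the 32285 in the count tables. They are H2-Aa, H2-Ab1, H2-Eb1, Cd74, H2-DMa, H2-DMb1, H2-DMb2, H2-Oa, H2-Ob and Ciita, and all 10 were found. Their Ensembl identifiers in the tables are ENSMUSG00000036594 for H2-Aa, ENSMUSG00000073421 for H2-Ab1, ENSMUSG00000060586 for H2-Eb1, ENSMUSG00000024610 for Cd74, ENSMUSG00000037649 for H2-DMa, ENSMUSG00000079547 for H2-DMb1, ENSMUSG00000037548 for H2-DMb2, ENSMUSG00000024334 for H2-Oa, ENSMUSG00000041538 for H2-Ob and ENSMUSG00000022504 for Ciita. The study compared 2 tumours of mice given TAK-981 (subasumstat), an inhibitor of the SUMO-activating enzyme, with 2 tumours of mice given the vehicle Cremophor. All tumours were of the KPC46 organoid line, which is a single line, in B6/129 F1J mice, and each library held the cells of 1 tumour of 1 mouse. Dose, schedule, age and sex of the mice are not given in the sources used here. Cells were dissociated, red cells were lysed, dead cells were removed where viability was low, and libraries were made with 10x Genomics 3' v3.1 chemistry, which counts unique molecular identifiers (UMIs) near the 3' end of each transcript.

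Class II molecules carry peptides from internalised proteins to the cell surface, where CD4 T cells recognise them. Dendritic cells, B cells and macrophages are the usual carriers, mouse T cells lack them, and most other cells switch them on only after signals such as interferon gamma. Within the cell the invariant chain Cd74 occupies the peptide groove, H2-DM exchanges its remnant for peptide, H2-O inhibits H2-DM, and Ciita, which binds no DNA itself, is recruited to conserved X and Y boxes in front of these genes. A class of tumour fibroblasts carrying class II and Cd74 has been described in pancreatic cancer.

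Of the 10 members, 8 lie together on mouse chromosome 17 (GRCm38), where H2-Oa, H2-DMa, H2-DMb2, H2-DMb1, H2-Ob, H2-Ab1, H2-Aa and H2-Eb1 follow each other within 224 kb (34092340 to 34316674). H2-Aa is on the minus strand and the other members there are on the plus strand. Ciita lies on chromosome 16 (10480059 to 10528418, plus strand). Promoters were matched for 7 of the 10 members in RefSeq (GRCm38.p6), and H2-Ab1, Cd74 and Ciita were not matched. Since the members' levels varied together across cell classes, windows of 65 bases around the Y box are shown for 5 promoters with X-box letters before it. In H2-DMa, not shown, GATTGG began 199 bases before the start with neither X-box motif in front of it. Capitals mark GATTGG, the Y box, which is an inverted CCAAT, and in front of it GCAAC or AACNNATGATG, letters of the X box.
H2-Aa, chr17:34287853-34287917, minus strand: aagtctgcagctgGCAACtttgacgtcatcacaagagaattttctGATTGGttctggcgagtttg
H2-Eb1, chr17:34305762-34305826, plus strand: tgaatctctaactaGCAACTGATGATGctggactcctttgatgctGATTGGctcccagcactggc
H2-DMb2, chr17:34145113-34145177, plus strand: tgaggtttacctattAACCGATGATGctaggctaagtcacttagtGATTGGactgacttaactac
H2-Oa, chr17:34092290-34092354, plus strand: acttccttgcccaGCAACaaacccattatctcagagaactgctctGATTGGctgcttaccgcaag
H2-Ob, chr17:34238802-34238866, plus strand: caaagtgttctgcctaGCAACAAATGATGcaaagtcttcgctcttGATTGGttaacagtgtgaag

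GATTGG began 49 bases before the RefSeq start in H2-Aa, 60 in H2-Eb1, 91 in H2-DMb2, 44 in H2-Oa and 58 in H2-Ob. On either strand of the 250 bases before the start it was present in 7 of 7 matched members and in 4734 of 32536 distinct promoters (14.6%). GCAAC was present in 5 of 7 members and in 9671 promoters (29.7%). AACNNATGATG, which overlaps GCAAC where both occur, was present in 4 members (H2-Eb1, H2-DMb1, H2-DMb2 and H2-Ob) and in 39 promoters (0.12%). AACNNATGATG followed within 35 bases by GATTGG on the same strand was present in 4 promoters of 32536 (0.0123%), those of the same 4 members. GCAAC followed by GATTGG at the same distance was present in 144 promoters (0.443%), among them those of H2-Aa, H2-Eb1, H2-Oa and H2-Ob. The letters were read off members' own promoters, so these counts describe the sequences and show no binding. The corresponding window of H2-DMb1 (not shown) differed from that of its neighbour H2-DMb2 at 9 of 65 bases. Cd74, the invariant chain gene, lies apart from the others on chromosome 18 (60803848 to 60812652, plus strand).

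The libraries TAK-981 1, TAK-981 2, vehicle 1 and vehicle 2 kept 2214, 3110, 4408 and 4130 cells, with median depths of 5024.5, 12831, 2269 and 4152.5 UMIs per cell. Depth and median mitochondrial share (6.90 and 5.11% against 2.93 and 2.71%) were thus higher under TAK-981, and libraries shared 1 to 10 cell barcodes in pairs. Cells were clustered without any class II gene and named from marker genes of each type, so that every class name stands for cells resembling that type. All 10 B markers were detected in the B cluster and 9 of the 12 dendritic markers in the dendritic cluster. Levels are in CPM, that is, a gene's UMIs divided by all UMIs of the class in that library and scaled to 1000000. They count transcripts near their 3' end and are not scaled to length, so only classes and libraries are compared, not genes. A gene read from near-identical sequence, as H2-DMb1 and H2-DMb2 may be in part, has an uncertain split between both copies.

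**Figure D1:**
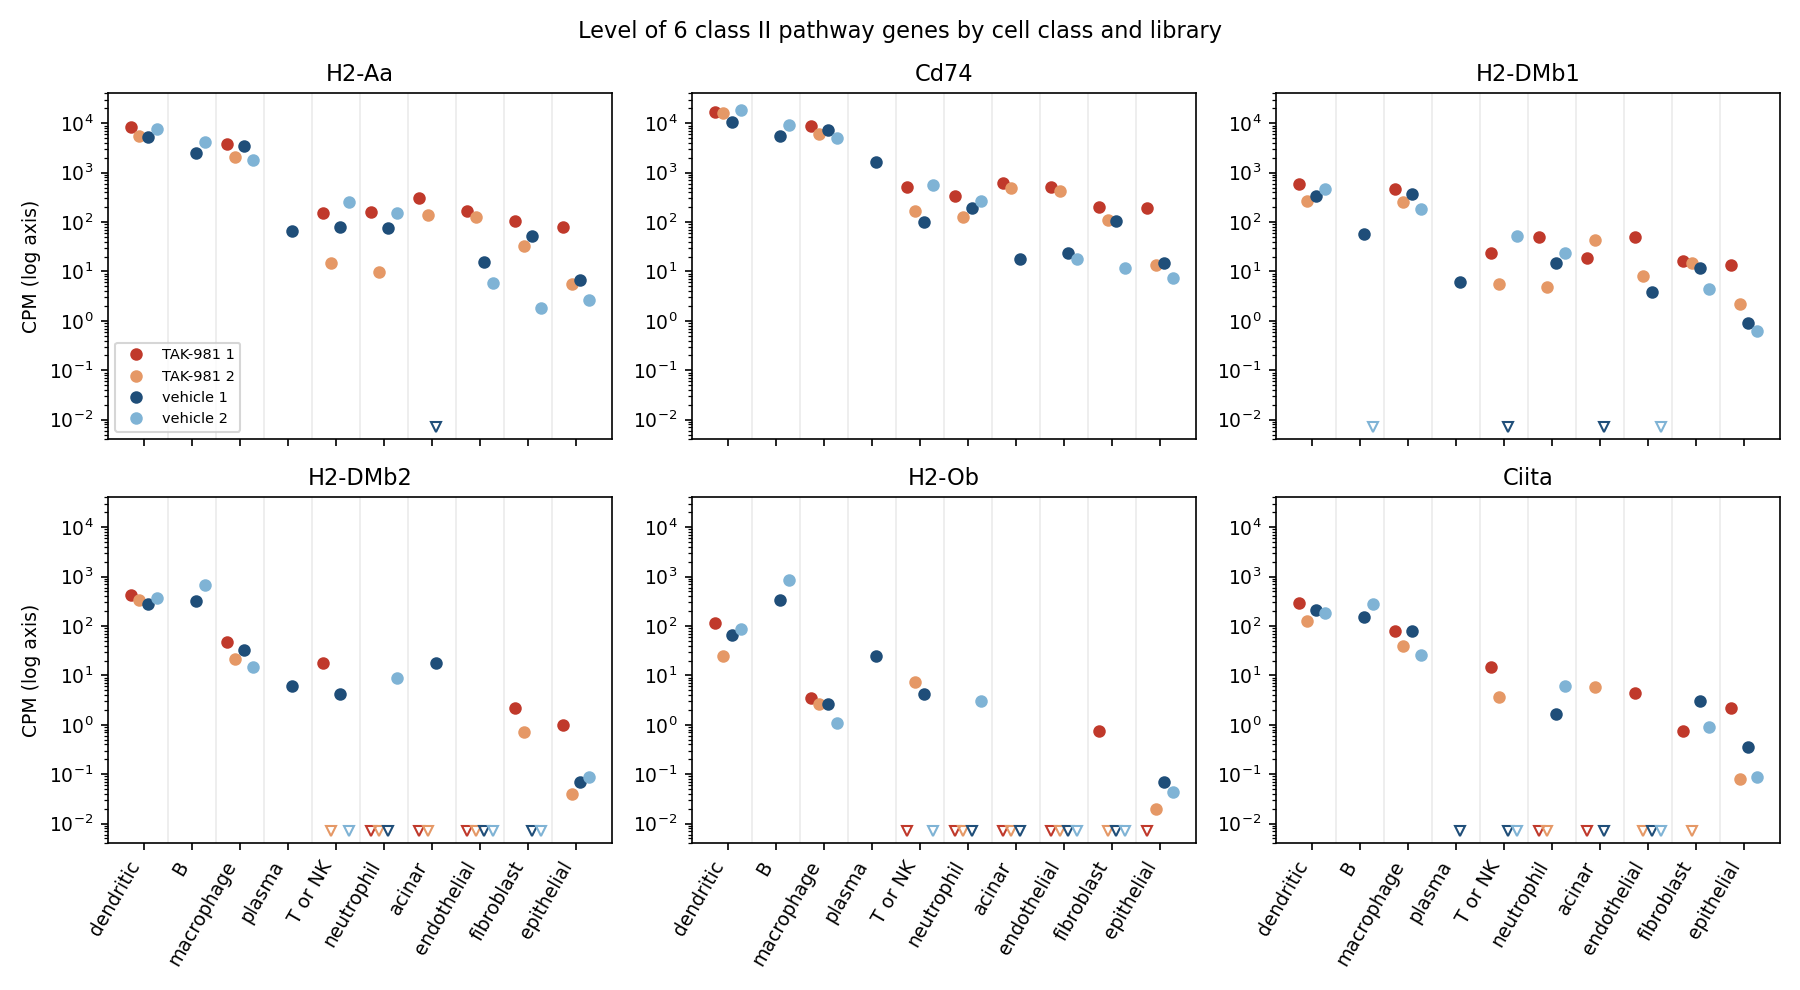
Level of 6 members (CPM, log axis) in 10 cell classes ordered from dendritic to epithelial, 1 point per library and open triangles for libraries with 0 UMIs, where classes with fewer than 10 cells in a library are left out. Dendritic, B and macrophage classes stand above the other classes for H2-Aa and Cd74, whereas H2-Ob was higher in B cells (330 and 854 CPM) than in macrophages (1.08 to 3.55 CPM).

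The dendritic class had the highest class II level in each of the 4 libraries. In the TAK-981 libraries 20 of its 30 and 13 of its 27 cells formed a subcluster led by Spp1, Apoe, Clec4d, Hsph1 and Cebpa. That subcluster held 2 of 233 and 0 of 32 vehicle cells, so the values of the class come from unlike cells in the groups. In TAK-981 1 and TAK-981 2 it held 6 and 1 UMIs of the dendritic marker Flt3, 22 and 0 of Xcr1 and 7 and 6 of Clec9a. It also held 8 and 60 UMIs of Ccr7, 0 and 13 of Fscn1, 0 and 2 of Cd209a and none of Siglech. Its Flt3 level was 35.9 and 7.29 CPM, beside 15.0 to 180 CPM in vehicle subclusters of at least 10 cells in a library. Summed over the 10 members the dendritic class had 44236 and 34367 CPM in the TAK-981 libraries and 27087 and 42933 CPM in the vehicle libraries, or 37156 ± 8014 CPM over all (SD, n = 4). Macrophages or monocytes had 20239 and 12365 CPM under TAK-981 and 17414 and 10160 CPM under vehicle (15044 ± 4606 CPM, SD, n = 4). B cells reached 10 cells only in vehicle libraries, with 12752 CPM in vehicle 1 (429 cells) and 19545 CPM in vehicle 2 (14 cells). Dendritic cells exceeded macrophages in 4 of 4 libraries, by 1.56- to 4.23-fold, and exceeded B cells in both vehicle libraries. Macrophages and B cells did not keep an order, since macrophages were higher in vehicle 1 and B cells in vehicle 2.

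Transcripts of the alpha and beta chains followed this order, and they do not show molecules at the surface. H2-Aa, the alpha chain of I-A, had 8566 and 5600 CPM in TAK-981 and 5206 and 7554 CPM in vehicle dendritic cells. In macrophages it had 3759 and 2059 CPM under TAK-981 and 3453 and 1786 CPM under vehicle, and in B cells 2489 and 4080 CPM under vehicle. Groups overlapped in dendritic cells and in macrophages, and the higher value of each group came from TAK-981 1 and, in macrophages, vehicle 1. H2-Ab1, the beta chain of I-A, and H2-Eb1, the beta chain of I-E, averaged 6926 ± 1596 and 5884 ± 1619 CPM in dendritic cells and 2461 ± 979 and 2103 ± 835 CPM in macrophages (SD, n = 4). Cd74 had 16941 and 16048 CPM in TAK-981 and 10843 and 18525 CPM in vehicle dendritic cells. In macrophages Cd74 was at 8625 and 6160 CPM under TAK-981 and 7422 and 5130 CPM under vehicle. Relative to the summed H2-Aa, H2-Ab1 and H2-Eb1 UMIs, Cd74 stood at 0.836 and 1.13 in TAK-981 and 0.821 and 1.14 in vehicle macrophages, so that the second library of each group was higher.

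Plasma cells, the antibody-secreting descendants of B cells, had more Cd74 relative to the chains than B cells. They reached 30 cells in vehicle 1 alone, with 1673 CPM of Cd74 beside 67.2 CPM of H2-Aa, 177 CPM of H2-Ab1 and no Ciita UMI. Their ratio of Cd74 to the 3 chains was 5.27, against 0.970 in B cells of the same library. The plasma value rests on 1 library and has no replicate.

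The peptide-loading genes separated the classes in another way. H2-DMa, the alpha chain of H2-DM, averaged 803 ± 217 CPM in dendritic cells and 471 ± 168 CPM in macrophages (SD, n = 4). H2-DMb1, a beta chain of H2-DM, had 596 and 266 CPM in TAK-981 and 345 and 469 CPM in vehicle dendritic cells. In macrophages it had 459 and 258 CPM under TAK-981 and 375 and 187 CPM under vehicle. Dendritic cells were higher in H2-DMb1 in 3 of 4 libraries, with ratios of 0.919 to 2.51. H2-DMb2, the other beta chain, had 421 and 329 CPM in TAK-981 and 285 and 360 CPM in vehicle dendritic cells, but 47.9 and 21.4 CPM in TAK-981 and 32.5 and 14.8 CPM in vehicle macrophages. Here dendritic cells were 8.75- to 24.4-fold higher in 4 of 4 libraries.

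The share of H2-DMb2 among H2-DMb1 and H2-DMb2 UMIs therefore marked the class. It was 41.4 and 55.3% in TAK-981 and 45.2 and 43.4% in vehicle dendritic cells, and 9.45 and 7.64% in TAK-981 and 7.97 and 7.32% in vehicle macrophages. In B cells it was 85.0% in vehicle 1 (exact 95% interval 79.3 to 89.6% of 200 UMIs), and in vehicle 2 all 7 UMIs were of H2-DMb2. Macrophage and dendritic shares did not overlap in any library, and the intervals cover counting error only.

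H2-O, the inhibitor of H2-DM, was found in dendritic and B cells. H2-Oa had 245 and 155 CPM in TAK-981 and 81.9 and 229 CPM in vehicle dendritic cells, 193 and 94.9 CPM in vehicle B cells, and 1.80 to 4.59 CPM over the 4 macrophage sums. H2-Ob had 115 and 24.2 CPM in TAK-981 and 66.1 and 87.3 CPM in vehicle dendritic cells, and 330 and 854 CPM in vehicle B cells. H2-Ob was thus higher in B than in dendritic cells in both vehicle libraries, and lowest of the 3 classes in macrophages (1.08 to 3.55 CPM). Per 100 H2-DM UMIs, H2-O UMIs numbered 17.2 and 14.2 in TAK-981 and 12.1 and 18.6 in vehicle dendritic cells, 77.8 and 125 in vehicle B cells, and 0.634 and 1.05 in TAK-981 and 0.612 and 0.565 in vehicle macrophages. T or NK cells held few H2-Oa UMIs (4 and 10 under TAK-981, 3 and 1 under vehicle), at 11.9 and 18.4 CPM under TAK-981 and 12.7 and 10.4 CPM under vehicle, yet stood above macrophages in 4 of 4 libraries.

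**Figure D2:**
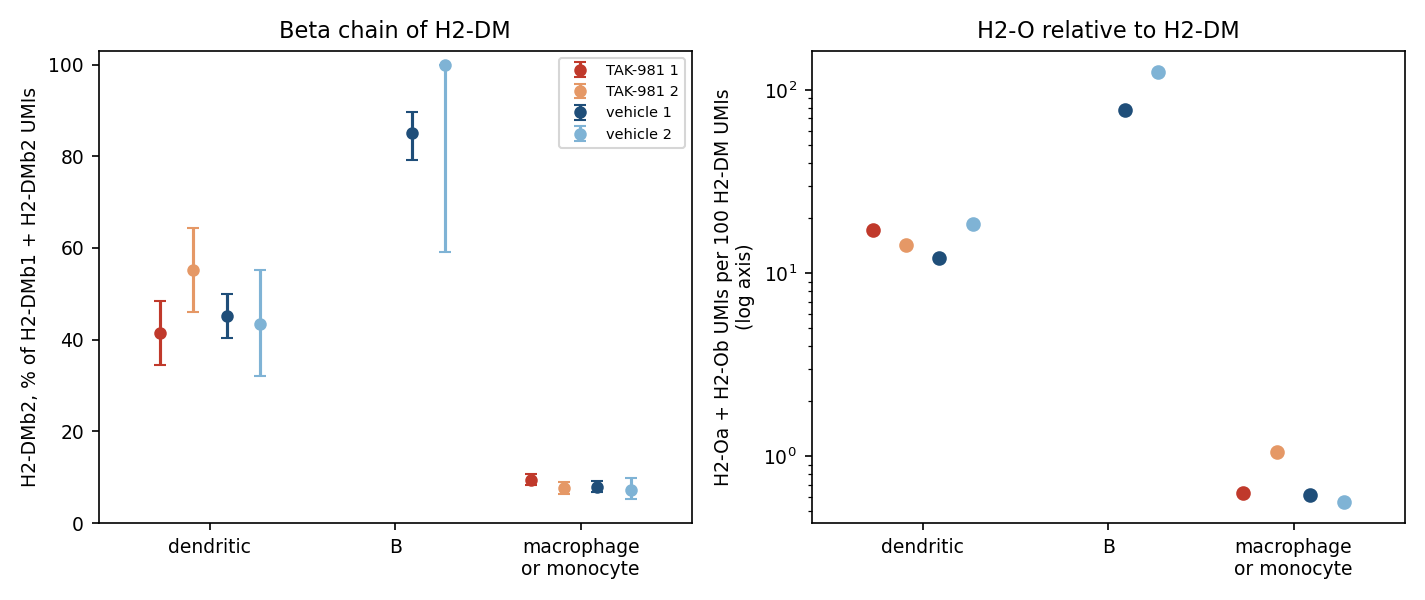
Left, share of H2-DMb2 among H2-DMb1 and H2-DMb2 UMIs (%, with exact 95% binomial intervals), and right, H2-Oa and H2-Ob UMIs per 100 H2-DM UMIs (log axis), 1 point per library in dendritic, B and macrophage or monocyte classes. Macrophage shares of 7.32 to 9.45% lie below dendritic shares of 41.4 to 55.3%, and B cells lie highest in both panels.

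Ciita followed the antigen-presenting classes at a low level. It had 290 and 126 CPM in TAK-981 and 214 and 186 CPM in vehicle dendritic cells, 151 and 285 CPM in vehicle B cells, and 79.8 and 40.2 CPM in TAK-981 and 78.5 and 26.0 CPM in vehicle macrophages. Dendritic cells exceeded macrophages 2.73- to 7.15-fold in 4 of 4 libraries, while dendritic and B cells kept no order. At full depth 60 and 37.0% of TAK-981 and 37.3 and 40.6% of vehicle dendritic cells held a Ciita UMI. With every cell thinned to 500 UMIs the shares were 3.33 and 7.41% in TAK-981 and 8.58 and 3.13% in vehicle dendritic cells. In epithelial cells, the class that should hold the tumour cells, 0 of 811 and 0 of 1966 TAK-981 cells and 1 of 1107 and 0 of 2404 vehicle cells held a Ciita UMI at that depth. Counts of 0 allow shares of up to 0.370 and 0.153% in the TAK-981 libraries and 0.125% in vehicle 2, which limit only cells with a UMI among 500 drawn, not cells that express Ciita. At full depth, with median depths of 14867 and 20581.5 UMIs under TAK-981 and 11713 and 8673 UMIs under vehicle, 2.59 and 0.153% of TAK-981 and 0.452 and 0.0832% of vehicle epithelial cells held a Ciita UMI, and so did 2.90 and 1.37% of TAK-981 and 0 and 0 of vehicle T or NK cells, at 2611 to 3304 and 1114 to 1220 UMIs.

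Across 30 class sums (1 class in 1 library) of at least 30 cells, 6 members followed the others closely. The Pearson correlation of log2(CPM + 1) of a member with the sum of the other 9 was 0.98 for H2-Eb1, H2-Ab1 and Cd74, 0.97 for H2-Aa, 0.94 for H2-DMa and 0.92 for H2-DMb1. It was 0.85 for Ciita, 0.83 for H2-DMb2, and 0.68 for both H2-Oa and H2-Ob. Sums of 1 library share its depth and free RNA, so these values describe the pattern and carry no test. Among 8426 other genes with a mean of at least 10 CPM, those most like the summed members were Ifi30 (0.903), Ctss (0.899), Pld4 (0.893), Pkib (0.890), Irf5 (0.876), Ly86 (0.872), Cd86 (0.868), Cybb (0.860), Napsa (0.860) and Unc93b1 (0.858). These too are Pearson correlations of log2(CPM + 1) over the 30 class sums. Ifi30 is a thiol reductase and Ctss a protease of the endosomes in which class II is loaded, and Cd86 is a costimulatory ligand.

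Outside the antigen-presenting classes the summed level was lower, and macrophages exceeded T or NK cells 7.82- to 60.7-fold in 4 of 4 libraries. T or NK cells had 1084 and 315 CPM in TAK-981 and 287 and 1299 CPM in vehicle libraries, and neutrophils 1029 and 182.5 CPM against 415 and 659 CPM. Fibroblasts had 468 and 243 CPM under TAK-981 and 272 and 59.8 CPM under vehicle, and endothelial cells 1189 and 819 CPM against 66.0 and 47.5 CPM. Epithelial cells had 431 and 30.6 CPM under TAK-981 and 37.3 and 15.5 CPM under vehicle. Among these classes the epithelial mean was lowest and the fibroblast sum exceeded the epithelial sum in 4 of 4 libraries (1.09- to 7.92-fold). The order of T or NK cells, neutrophils and endothelial cells changed from library to library.

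With cells thinned to 500 UMIs, the share of cells holding a UMI of H2-Aa, H2-Ab1, H2-Eb1 or Cd74 gave the same split. It was 100 and 74.1% in TAK-981 and 88.4 and 96.9% in vehicle dendritic cells, 99.8 and 100% in vehicle B cells, and 82.8 and 61.8% in TAK-981 and 85.7 and 64.7% in vehicle macrophages. T or NK cells, taken as a comparator because mouse T cells lack class II, had 18.8 and 7.53% under TAK-981 and 6.29 and 5.88% under vehicle. The source of their class II UMIs was not tested. Fibroblasts (10.4 and 6.80% against 7.62 and 3.45%) were below the T or NK share except in vehicle 1, and endothelial cells (5.56 and 6.67% against 6.56 and 2.25%) except in vehicle 1 as well. Epithelial cells (10.4 and 1.42% against 2.71 and 0.582%) were below the T or NK share in 4 of 4 libraries, and neutrophils had 21.7 and 3.81% against 13.5 and 5.22%. At 1000 UMIs, where shallower cells drop out, the order of fibroblasts and endothelial cells against T or NK cells was different. There T or NK cells had 26.9 and 13.6% under TAK-981 and 8.57 and 5.41% under vehicle, fibroblasts 13.8 and 4.90% against 14.9 and 7.14%, and endothelial cells 6.25 and 20% against 11.1 and 3.66%. Fibroblasts thus exceeded T or NK cells in both vehicle libraries, and endothelial cells in TAK-981 2 and vehicle 1, while epithelial cells (10.7 and 1.58% against 2.72 and 1.15%) stayed below in 4 of 4. Unthinned shares were 46.4 and 29.5% in TAK-981 and 14.5 and 8.82% in vehicle T or NK cells, 44.2 and 33.0% against 37.1 and 15.5% in fibroblasts, and 40.6 and 28.2% against 28.6 and 6.24% in epithelial cells, which were deeper than T or NK cells in every library.

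Macrophage markers were found in all of these classes. Of 12 macrophage markers 9 to 10 were detected in T or NK cells, 9 to 12 in fibroblasts, 12 in epithelial cells and 6 to 12 in endothelial cells. Both the markers and class II were highest in TAK-981 1 in fibroblasts, epithelial cells and endothelial cells, but they did not keep the same order over the other libraries. The summed marker level was 1399 and 565 CPM in TAK-981 and 487 and 316 CPM in vehicle fibroblasts, 696 and 204 CPM against 153 and 93.9 CPM in epithelial cells, and 1351 and 883 CPM against 50.5 and 125 CPM in endothelial cells. It was 559 and 267 CPM in TAK-981 and 338 and 811 CPM in vehicle T or NK cells, and 1765 and 962 CPM against 1613 and 981 CPM in neutrophils. The defining markers Adgre1 was at 0 in 3 of 4 endothelial libraries and Ms4a7 in 2. Of 12 dendritic markers 4 to 5 were detected in each fibroblast and endothelial library, while Xcr1, Flt3 and Siglech were at 0 in all of them. The summed dendritic markers were at 140 to 164 CPM in fibroblasts and 212 to 383 CPM in endothelial cells. B markers numbered 0 to 5 detected of 10 in T or NK cells, fibroblasts and endothelial cells. What part of the class II level came with these markers was not tested.

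To set a scale, the C1q genes (C1qa, C1qb and C1qc), which macrophages make, were used to work out the class II level that would come along with macrophage RNA of the same library. In epithelial cells the measured level was 0.942 and 0.942 times that value under TAK-981 and 1.16 and 1.31 times under vehicle. Fibroblasts stood at 0.510 and 1.98 times under TAK-981 and 4.13 and 5.07 times under vehicle, on 12 and 10 C1q UMIs in the vehicle libraries. T or NK cells stood at 5.29 and 3.95 times against 1.67 and 2.01 times, neutrophils at 1.02 and 0.467 times against 1.12 and 5.77 times, and endothelial cells at 1.59 and 23.6 times against 1.54 and 0.931 times, on 3 C1q UMIs in TAK-981 2. These ratios depend on the markers chosen and do not give the source of the RNA. Scaled by all 12 macrophage markers, which include genes other cells make, the epithelial values were 0.858 and 0.263 under TAK-981 and 0.191 and 0.282 under vehicle, and the endothelial values 1.22 and 1.62 against 1.02 and 0.653.

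**Figure D3:**
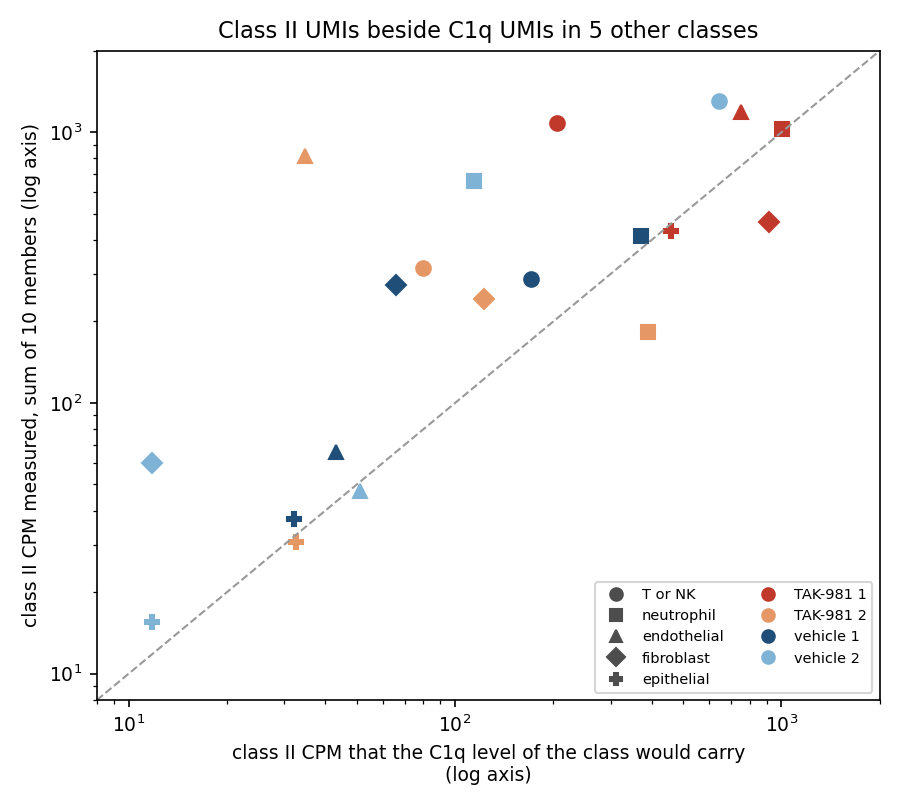
Measured class II level (CPM summed over 10 members, log axis) against the level that the C1q UMIs of the class would carry from macrophages of the same library (log axis), in 5 classes (shapes) and 4 libraries (colours), with equal values on the dashed line. Epithelial sums lie along the line in 4 of 4 libraries, and the endothelial sum of TAK-981 2 lies 23.6 times above it on 3 C1q UMIs.

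Much of the class II signal in these classes came from a few cells. The 2 cells highest in class II held 95.8 and 96.1% of all class II UMIs in TAK-981 and 23.5 and 37.5% in vehicle endothelial cells. In TAK-981 1 they held 282 and 245 class II UMIs beside 400 and 30 macrophage-marker UMIs, and in TAK-981 2 the highest held 94 class II UMIs beside 102 macrophage-marker UMIs. In vehicle 2, 117 of the 125 class II UMIs of T or NK cells lay in 1 cell with 65 macrophage-marker UMIs. Without these 2 cells per library the endothelial sums were 55.4 and 43.7 CPM under TAK-981 and 55.2 and 30.7 CPM under vehicle. The T or NK sums were then 277 and 175 CPM against 159 and 69.2 CPM, and the fibroblast sums 171 and 71.9 CPM against 99.4 and 47.5 CPM. Without these cells the endothelial groups overlapped, and the epithelial sums were 356 and 21.0 CPM against 35.3 and 11.3 CPM. The cells were picked by class II itself and make up a larger share of the small endothelial class than of the epithelial class, so the sums without them only describe how the UMIs were spread over cells.

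**Figure D4:**
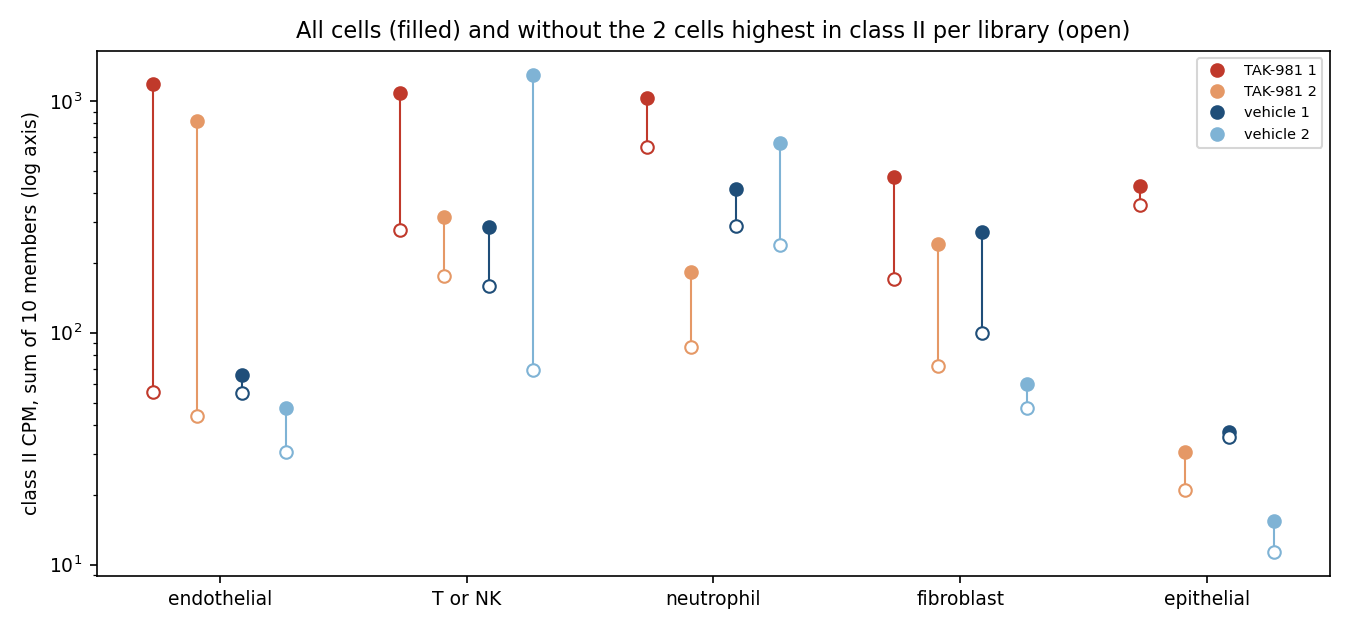
Class II level (CPM summed over 10 members, log axis) with all cells (filled points) and without the 2 cells highest in class II of each library (open points), in 5 classes, TAK-981 libraries left of vehicle libraries. Endothelial sums of the TAK-981 libraries fall to 55.4 and 43.7 CPM without these cells, beside 55.2 and 30.7 CPM in the vehicle libraries.

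The effect of TAK-981 on each member was tested within each class on UMIs summed per mouse, with edgeR's quasi-likelihood test, p-values being adjusted by Benjamini-Hochberg over every gene that passed the filter in that class. With 2 mice against 2, p-values rest on the spread between these 4 mice, and an exact permutation test could not go below 0.333. In macrophages or monocytes none of the 10 members was called, where 0% of 10670 genes were. No member had an unadjusted p under 0.05 there, 1419 of all genes did, and DESeq2 called no member either. The log2 fold changes (TAK-981 over vehicle) were -0.10 for H2-Aa, 0.08 for H2-Ab1, -0.06 for H2-Eb1 and -0.01 for Cd74, with SEs of 0.36 to 0.46. They were 0.29 for H2-DMa, 0.10 for H2-DMb1, 0.26 for H2-DMb2, 0.68 for H2-Oa, 0.37 for H2-Ob and -0.08 for Ciita, with SEs of 0.34 to 0.57. H2-Oa was the 1 member without overlap between the groups, and it was higher under TAK-981 as were 40.8% of all genes. The median over the members was 0.09, against 0.01 over all genes.

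In dendritic cells 0 of 10 members were called, against 4.98% of 2891 genes (0.553% higher and 4.43% lower), with no member at an unadjusted p under 0.05 and none called by DESeq2. Cd74 stood at -0.05 ± 0.25 (log2 fold change ± SE), H2-Aa at -0.07 ± 0.27, Ciita at -0.22 ± 0.42 and H2-Oa at 0.37 ± 0.49. The groups overlapped for all 10 members, where 36.6% of genes lay higher without overlap. Different cells held the class in each group. In the subcluster led by Spp1, described above, the summed members reached 47116 and 47024 CPM under TAK-981.

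In endothelial cells the values under TAK-981 rest on the few cells named above, and vehicle sums held 17 and 16 class II UMIs in all. The filter on low counts passed 4 members, through the group where they were high, so their count is no support for a difference. edgeR called these 4 higher under TAK-981, where 1.97% of 4678 genes were called and 0.684% higher. H2-Aa had 169 and 128 CPM in TAK-981 and 15.5 and 5.94 CPM in vehicle cells, a log2 fold change of 3.66 ± 0.55 (SE, edgeR adjusted p = 0.0130). Cd74 had 521 and 425 CPM in TAK-981 and 23.3 and 17.8 CPM in vehicle cells, a log2 fold change of 4.33 ± 0.43 (edgeR adjusted p = 0.00535). H2-Ab1 (3.61 ± 0.47, edgeR adjusted p = 0.0130) and H2-Eb1 (4.15 ± 0.82, edgeR adjusted p = 0.0330) were called too. Groups did not overlap for any of the 4, as for 31.8% of all genes on the higher side. The class held 36 and 15 TAK-981 cells and 61 and 89 vehicle cells. Without the 2 cells named above no member passed the filter. Without removal of doublets 0 of 5 were called, where 7 of 5460 genes were called higher. With the cells high in macrophage markers left out (0.5% or more of their UMIs), which kept the second cell of TAK-981 1 and the highest of TAK-981 2, 4 were still called. In that fit 32 of 4652 genes were called higher.

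Epithelial cells had higher class II under TAK-981 in 1 of the 2 libraries. H2-Aa had 80.8 and 5.46 CPM in TAK-981 and 6.87 and 2.62 CPM in vehicle epithelial cells, and Cd74 190 and 13.6 CPM against 14.5 and 7.28 CPM. TAK-981 1 stood apart and TAK-981 2 lay within the vehicle range. None of the 6 tested members was called, where 2.23% of 12749 genes were (0.541% higher and 1.69% lower), with log2 fold changes of 2.35 to 2.80. Cd74 was at 2.67 ± 1.08 (SE, edgeR adjusted p = 0.231) and H2-DMb1 at 2.80 ± 0.87 (edgeR adjusted p = 0.144). These 2 of 6 members had an unadjusted p under 0.05, as did 2691 of 12749 genes. DESeq2 called H2-DMb1 (adjusted p = 0.0161), where it called 565 genes higher and 720 lower of 12749. H2-DMb1 was also the 1 member whose groups did not overlap, at 13.5 and 2.24 CPM in TAK-981 and 0.921 and 0.622 CPM in vehicle cells, where 61.2% of genes lay higher without overlap. Without TAK-981 2 the members' median log2 fold change was 3.37, and without TAK-981 1 that of Cd74 was -0.18. With the epithelial cells high in macrophage markers left out, the median over the 6 tested members was 1.87, against 2.57 with all cells. Epithelial cells with 2 or more UMIs in sum of macrophage, dendritic or B markers were also left out. These were 538 of 811 and 1437 of 1966 TAK-981 cells, and 585 of 1107 and 908 of 2404 vehicle cells. That cut is a count of UMIs, so it removes deep cells more readily, and cells with fewer such UMIs stay. Without the cells it removed, the median over 5 tested members was 0.56, and Cd74 stood at 0.56 ± 0.85 (SE, edgeR adjusted p = 0.773). The members' log2 fold changes were thus smaller without those cells, and edgeR called none of them in either case.

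In fibroblasts 0 of 6 tested members were called, where 0.929% of 8934 genes were (0.257% higher and 0.672% lower), with none at an unadjusted p under 0.05 and none called by DESeq2. H2-Aa had 105 and 33.5 CPM in TAK-981 and 52.02 and 1.79 CPM in vehicle fibroblasts, and Cd74 201 and 112 CPM against 104 and 11.6 CPM. Groups overlapped for H2-Aa but not for Cd74, H2-DMa and H2-DMb1, which were higher under TAK-981, as were 34.1% of genes. The log2 fold changes were 1.26 ± 0.95 for H2-Aa and 1.27 ± 0.73 for Cd74 (SE, edgeR adjusted p = 0.740 and 0.650). With the fibroblasts high in macrophage markers left out, H2-Aa stood at -0.03 ± 0.92 and Cd74 at 0.21 ± 0.80. The median over the 6 members was then -0.09, against 0.81 with all cells. That cut removed 5 fibroblasts in TAK-981 1, 3 in vehicle 2 and 0 in TAK-981 2 and vehicle 1. With the 2 cells highest in class II left out of each library instead, the median was 0.98 over 5 tested members. Without vehicle 1, whose fibroblasts held most of the vehicle class II UMIs, the median over the 6 members was 2.16.

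T or NK cells had 0 of 5 tested members called, where 0.023% of 4339 genes were, and neutrophils 0 of 4, where 0.793% of 3026 genes were (0.595% higher and 0.198% lower). In neither class did a member have an unadjusted p under 0.05 or a DESeq2 call. In T or NK cells log2 fold changes ran from -1.23 for H2-Aa to 0.31 for H2-DMa, and in neutrophils from -0.79 for H2-Aa to 0.43 for H2-Eb1. The direction in T or NK cells turned with other cell filters. The members' median was -0.39 over 5 tested members, 1.24 over 4 tested with the 2 cells high in macrophage markers left out (1 in TAK-981 1 and 1 in vehicle 2), and 1.32 over 4 tested at no more than 10% mitochondrial UMIs. In neutrophils the median was 0.10, and -1.26 without the cells high in macrophage markers. No member was free of overlap in either class, against 37.2 and 21.3% of genes on the higher side. H2-Aa in T or NK cells had 152 and 14.7 CPM under TAK-981 and 80.2 and 249 CPM under vehicle, so each group held a high and a low library. Without TAK-981 1, which held the high value of its group in both classes, the members' median was -1.65 in T or NK cells and -2.18 in neutrophils.

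Whether the effect differed between classes was tested in 1 model with library as a term and macrophages as the comparator. No member was called for any class, where between 0 and 1.36% of 10312 genes were (epithelial 1.36%, neutrophil 0.0097%, and 0% for dendritic, endothelial, fibroblast and T or NK cells). Members with an unadjusted p under 0.05 numbered 5 of 10 in endothelial and 5 of 10 in epithelial cells and 0 in the other classes. Of all 10312 genes, 614 had such a p in endothelial and 1097 in epithelial cells. Cd74 in endothelial cells differed from macrophages by 4.18 ± 1.23 on the log2 scale (SE, edgeR adjusted p = 0.526), and H2-DMb1 in epithelial cells by 2.39 ± 0.68 (edgeR adjusted p = 0.0908). An effect called in endothelial cells alone was thus not shown to differ from that in macrophages.

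The macrophage or monocyte class held 4 clusters with unlike class II levels. Cluster 7, led by Dcstamp, Ccl24, Mgl2, Gpr171 and Itgax, had the highest summed level in 4 of 4 libraries, at 29897 and 26098 CPM under TAK-981 and 21164 and 21830 CPM under vehicle. Cluster 9, led by Ccl8, Fcrls, Folr2, F13a1 and Ms4a7, had 17697 and 7682 CPM against 9642 and 6976 CPM. Cluster 6, led by Ly6c2, Ms4a4c, Chil3, Ifi209 and Phf11b, had 8926 and 5963 CPM under TAK-981 and 16141 and 10488 CPM under vehicle. Cluster 6 was the lowest of the 4 in both TAK-981 libraries and the second highest in both vehicle libraries. Cluster 4, led by Aif1, Rgs10, Spi1, Arhgdib and Pycard, held shallow cells (median 785 UMIs) and had 17513 and 11091 CPM against 8745 and 9744 CPM. Most TAK-981 1 cells of the class lay in clusters 9 and 4 (320 and 316 of 780), most TAK-981 2 cells in cluster 9 (357 of 671) and most vehicle 2 cells in cluster 9 (512 of 827). In vehicle 1 the largest cluster was cluster 7 (714 of 1491).

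**Figure D5:**
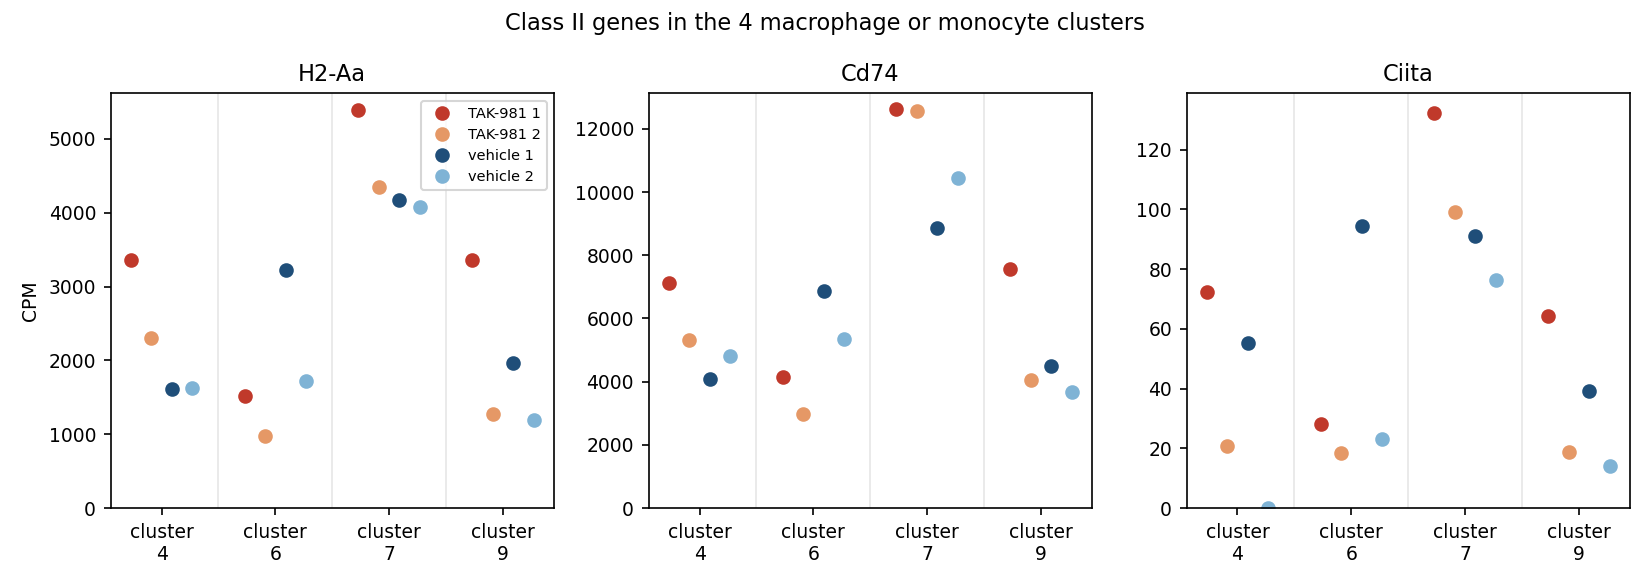
Level (CPM) of H2-Aa, Cd74 and Ciita in the 4 macrophage or monocyte clusters, 1 point per library with TAK-981 libraries left of vehicle libraries. In cluster 6 the TAK-981 values of H2-Aa (1517 and 973 CPM) lie below the vehicle values (3222 and 1718 CPM), and in cluster 7 (5395 and 4350 CPM) above them (4178 and 4074 CPM).

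Within cluster 6, which held 46 and 135 TAK-981 cells and 328 and 143 vehicle cells, class II lay lower under TAK-981. H2-Aa had 1517 and 973 CPM in TAK-981 and 3222 and 1718 CPM in vehicle cells, and Cd74 4153 and 2991 CPM against 6878 and 5352 CPM. In this cluster 4 of 7 tested members (H2-Aa, H2-Ab1, H2-Eb1 and Cd74) lay lower without overlap, as did 12.4% of 6112 genes. None of the 7 was called, where 2.7% of genes were, although 5 had an unadjusted p under 0.05, as did 989 of 6112 genes. The log2 fold changes were -1.33 ± 0.42 for H2-Aa, -1.37 ± 0.41 for H2-Eb1, -1.11 ± 0.36 for Cd74 and -1.81 ± 0.64 for Ciita (SE, edgeR adjusted p = 0.162, 0.146, 0.166 and 0.208). In cluster 7, 0 of 8 members were called (1.94% of 8284 genes), and 7 of 8 lay higher without overlap, as did 37.3% of genes. Clusters 4 and 9 had 0 of 6 and 0 of 8 called (7.8 and 0.0933% of genes), with 4 of 6 and 1 of 8 higher without overlap (35.4 and 35.7% of genes).

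The difference in effect from cluster 6 was tested in 1 model over the 4 clusters, an analysis added after the values had been seen, with cluster 6 as comparator because its members lay lower. Relative to cluster 6, 5 of 8 members had a higher TAK-981 effect in cluster 7, where 0.896% of 8590 genes were called in either direction, 14 of them higher. H2-Ab1 differed by 1.48 ± 0.31 on the log2 scale (SE, edgeR adjusted p = 0.00892), Cd74 by 1.27 ± 0.28 (edgeR adjusted p = 0.0153), H2-Aa by 1.28 ± 0.31 (edgeR adjusted p = 0.0294), H2-Eb1 by 1.35 ± 0.33 (edgeR adjusted p = 0.0294) and H2-DMb1 by 1.43 ± 0.34 (edgeR adjusted p = 0.0238). In cluster 9, 7 of 8 members were called higher, where 1.71% of genes were called. They include H2-Aa at 1.55 ± 0.31 (edgeR adjusted p = 0.00388), Cd74 at 1.37 ± 0.28 (edgeR adjusted p = 0.00539), H2-DMa at 1.51 ± 0.31 (edgeR adjusted p = 0.00530) and Ciita at 1.98 ± 0.54 (edgeR adjusted p = 0.0479). In cluster 4, H2-Aa (1.81 ± 0.33) and H2-Eb1 (2.05 ± 0.36) were called (edgeR adjusted p = 0.0129 and 0.0125), 2 of 8 members, where 0.0815% of genes were called. H2-DMb2 was called in none of the 3.

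These calls depend on single libraries. In cluster 7, 0 members were called without TAK-981 2, 3 without TAK-981 1, 2 without vehicle 1 and 7 without vehicle 2. In cluster 9, 0 were called without TAK-981 1 and 5 to 7 without any other library, and in cluster 4, 0 without TAK-981 1, 1 without TAK-981 2 and 4 without either vehicle library. The differences of H2-Aa, H2-Ab1, H2-Eb1, Cd74 and Ciita stayed positive in clusters 7 and 9 in each of the 4 fits with 1 library left out (H2-Aa 0.83 to 1.76 in cluster 7 and 1.06 to 1.89 in cluster 9). Other features of cluster 6 moved with the treatment, some of them in other clusters as well. Ly6c2, a marker of inflammatory monocytes, had 2569 and 2086 CPM in TAK-981 and 517 and 85.9 CPM in vehicle cells, and Irf7, an interferon response factor, 976 and 1293 CPM against 251 and 16.8 CPM. The summed macrophage markers were at 20449.5 and 15271 CPM against 12406.5 and 14516 CPM, and median depth at 7131 and 6628 UMIs against 2041.5 and 3201 UMIs. Depth and summed markers were higher under TAK-981 in clusters 7 and 9 too. The markers were at 23371 and 21078 against 13181 and 15076 CPM in cluster 7, and 31734 and 24030 against 15793 and 19049 CPM in cluster 9. Irf7 was also higher under TAK-981 in clusters 4 and 9, and its groups overlapped in cluster 7. The part of these features in the class II difference was not tested.

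Genes that act beside the members were counted by list, against 2.23% of all genes called in epithelial and 1.97% in endothelial cells. An unadjusted p under 0.05 was held by 2691 of 12749 genes in epithelial, 762 of 4678 in endothelial and 445 of 2891 in dendritic cells. It was held by 848 of 8934 genes in fibroblasts, 382 of 3026 in neutrophils, 540 of 4339 in T or NK cells and 1419 of 10670 in macrophages. Of 15 genes that act in class II transcription, among them Rfx5, Nfya and Irf1, 1 was called higher in epithelial cells and none in the other classes, where 7 to 15 were tested and 0 to 2 had an unadjusted p under 0.05, against 4 of 15 in epithelial cells. That gene was Irf8, a transcription factor of myeloid and lymphoid cells, with 6.54 and 7.40 CPM in TAK-981 and 0.496 and 0.133 CPM in vehicle epithelial cells (log2 fold change 4.04, edgeR adjusted p = 0.0367). Its vehicle sums held 7 and 3 UMIs, and it passed the filter through the TAK-981 libraries, so the call is no support for a difference. The list median was 0.24 in macrophages and 0.25 in epithelial cells, against 0.01 over all genes in both. It was 0.17 in fibroblasts, 0.04 in dendritic cells, -0.02 in endothelial cells, -0.23 in neutrophils and -0.27 in T or NK cells. Of 10 genes of class II processing and turnover, Ctss was called higher in endothelial cells, at 95.1 and 88.3 CPM against 0 and 11.9 CPM (3.54, edgeR adjusted p = 0.0299). These were 44 and 11 UMIs against 0 and 4. Ctss too passed the filter through the TAK-981 libraries, so the call is no support for a difference. The part of the few endothelial cells high in class II in the Ctss level was not tested. Mif, a ligand of Cd74, was called lower in epithelial cells, where it had 649.6 and 802 CPM in TAK-981 and 1627 and 1495 CPM in vehicle libraries, a log2 fold change of -1.63 (edgeR adjusted p = 0.0311). Processing genes with an unadjusted p under 0.05 numbered 4 of 9 tested in epithelial, 3 of 9 in dendritic and 3 of 8 in endothelial cells, 2 of 9 in fibroblasts, and 0 or 1 in the other classes. Of 8 costimulation and adhesion genes (Cd80, Cd86, Cd40, Icam1, Icosl, Cd83, Cd274 and Pdcd1lg2), 8 were tested in macrophages, 7 in dendritic cells and 1 to 4 in the other classes, and edgeR called none. Of these, 2 had an unadjusted p under 0.05 in dendritic cells, 1 in neutrophils and 1 in epithelial cells.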

How the data were processed

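Gene by cell UMI counts were deposited by the authors, 1 matrix for each of 4 libraries, aligned to mm10 with Cell Ranger 6.1.2 per the submitters' processing notes. The counts are raw and not normalized. No other per-sample columns were left unused (0 columns). The members and the gene lists were chosen with earlier results of these data known.

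Cells were kept from 500 UMIs and 250 genes upward if no more than 20% of UMIs were mitochondrial, and doublets were scored with Scrublet in scanpy 1.11.5 at 0.8% per 1000 cells and removed. Cells were clustered on 2000 variable genes without class II genes (30 components, 15 neighbours, Leiden resolution 1.0, igraph implementation) and named from marker lists. UMIs were summed per library and class of at least 30 cells (15 for dendritic and endothelial cells). Sums were tested with edgeR 4.0.16 (quasi-likelihood, TMM scaling, filter on low counts), with Benjamini-Hochberg adjustment over all genes of the class at 0.05, without a replicate block. DESeq2 1.42.0 was an alternative, as were other cell filters, normalizations, thinning and leaving out each library. The tests were tested on simulated data. Replicates were separate mice. Replicate libraries differed by more than sampling noise (chi-square per degree of freedom 116 for TAK-981 and 157 for vehicle). The filter on cells high in macrophage markers, the C1q scaling, the removal of 2 cells and the cluster comparison were chosen after seeing the data.

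All 10 members were named in each class. Of the other lists, genes past the threshold were named, at most 4 per list and class. Most-like genes were the 10 with the highest correlation. Clusters were named by number with their 5 leading genes. Gene positions were taken from the GENCODE annotation of GRCm38 and promoters from RefSeq. The smallest exact p that 2 mice against 2 allow is 0.333. Binomial intervals and the limits from counts of 0 (3 counts) cover counting error only.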

Additional observations from a re-analysis of the deposited data

Results flagged for a closer look

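In macrophage or monocyte clusters a difference in the TAK-981 effect on the members passed a test that was prompted by the values themselves and whose calls were lost in each cluster when 1 of the TAK-981 libraries was left out. Cluster 6, led by Ly6c2, was taken as comparator because its members had been seen to lie lower under TAK-981, so the test is no independent support. Compared with cluster 6, the effect was higher for 2 members in cluster 4, for 5 members in cluster 7 and for 7 members in cluster 9, of 8 tested in each (edgeR quasi-likelihood, adjusted p under 0.05). H2-Aa and H2-Eb1 were called in all 3 clusters, and H2-DMb2 in none of them. Without TAK-981 2 the count was 0 in cluster 7, and without TAK-981 1 it was 0 in clusters 4 and 9. Sums of clusters from 1 library share a mouse.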

How the results depend on the processing

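Of 238 member counts recomputed under other settings, with higher and lower counted apart, 229 were kept or changed little. A small change is 5 endothelial members called higher with no filter on low counts, against 4 as reported. The reported count was 0 in every case but endothelial members higher. Counts that moved from 0 include members higher in epithelial cells without TAK-981 2 and in fibroblasts without vehicle 1. They also include members lower in T or NK cells and in neutrophils without TAK-981 1. In those fits 1 group held 1 mouse, so the members' median is given for them below. Tests of differences between classes or clusters are not among the 238. Epithelial members called higher, 0 of 6 in the reported test, numbered 1 of 6 with DESeq2, where 565 of 12749 genes were called higher. With no filter on low counts they numbered 6 of 10, where 1113 of 20503 genes were called higher. With 1 library left out the median log2 fold change over the epithelial members ran from -0.27 to 3.37. Fibroblast members higher, 0 as reported, numbered 1 of 9 with no filter, where 167 of 16484 genes were called higher. Their median log2 fold change ran from 0.16 to 2.16 with 1 library left out. With 1 library left out the members' median ran from -1.65 to 0.62 in T or NK cells and from -2.18 to 1.04 in neutrophils. H2-Ab1 in neutrophils ranged from -2.76 without TAK-981 1 to 1.40 without TAK-981 2 (0.30 as reported). Endothelial members higher numbered 0 with doublets kept and 3 to 5 with 1 library left out. Differences from macrophages numbered 2 of 8 members in epithelial cells thinned to 500 UMIs, where 62 of 2774 genes were called higher. With 1 library left out the members' median difference ran from 2.44 to 3.52 in endothelial and from 0.008 to 2.84 in epithelial cells. Differences from cluster 6 numbered 2 of 8 in cluster 7 without clusters of low UMI counts, where 43 of 9138 genes were called higher. With 1 library left out their median ran from 1.09 to 2.00 in cluster 4, 0.96 to 1.72 in cluster 7 and 1.08 to 2.04 in cluster 9. The mean summed level was 1147 CPM in neutrophils of at least 1000 UMIs (572 as reported) and 1838 CPM in plasma cells of at most 10% mitochondrial UMIs (2034 as reported). At 1000 UMIs the mean share of cells with class II was 83.3% in plasma cells, 19.97% in neutrophils, 10.3% in endothelial cells and 10.2% in fibroblasts, against 40%, 11.1%, 5.26% and 7.06% at 500 UMIs. The causes of these changes were not tested.

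Same-numbered libraries of both groups did not deviate together (correlations of deviations -0.16 to -0.01), and the labels do not pair them. With the replicate block, 4 endothelial members were called higher, as were 20 of 4678 genes, and 0 in every other class, as without it. With the numbers crossed, 1 member was called lower in T or NK cells (70 of 4339 genes) and 4 higher in endothelial cells (77 of 4678 genes). Too few cells were left for a test of endothelial cells at 10% mitochondrial UMIs. The same held for fibroblasts, neutrophils and endothelial cells with fewer than 2 UMIs of other cells' markers. H2-Oa, H2-Ob, H2-DMb2 and Ciita passed the filter in macrophages and dendritic cells only.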

Other observations

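Within the dendritic class the summed level of the 10 members differed between subclusters more than between libraries. In vehicle 1, subcluster 7 (Areg, Mrc1, Stmn1, Mki67 and Plxdc2) had 36574 CPM and subcluster 8 (Cd209a, Cd209d, Clec10a, Ms4a4c and S100a4) had 35519 CPM. In vehicle 2 subcluster 7 had 49406 CPM on 11 cells. Subcluster 3, with the cross-presenting dendritic cell marker Xcr1 among its leading genes Ifi205, Sdad1, Sept3 and Ifi211, had 28571 CPM in vehicle 1. Subcluster 2, led by Nudt17, Il15ra, Il2ra, Tmem150c and Gm13546 and with Fscn1, a gene of mature dendritic cells, among its first 10, had 10625 CPM in TAK-981 2 and 12079 CPM in vehicle 1. Subcluster 1, led by Ddit4, Serpina3g, Prr14, Abcb1b and Il4i1 and with Ccr7 among its first 10, had 27884.5 CPM in vehicle 1. There Ccr7 was at 2303 CPM in subcluster 1 and 3024 CPM in subcluster 2, and Fscn1 at 352 and 1242 CPM. Subcluster 4 (Ly6d, Cox6a2, Iglc3, Siglech and Klk1b27) had 9195 CPM in vehicle 1, the lowest of the subclusters with at least 10 cells in a library. Siglech marks plasmacytoid dendritic cells. Subclusters 5 and 6, of 7 and 8 cells, were led by mast cell or basophil genes such as Mcpt1 and Il4. These values have 1 or 2 libraries each and carry no test.

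Among the other class II loci, H2-Eb2 had 35.04 and 29.1 CPM in TAK-981 and 31.6 and 43.7 CPM in vehicle dendritic cells, on 4 to 22 UMIs, and 0.197 to 1.43 CPM in macrophages. In vehicle 1 B cells it had 93.4 CPM on 49 UMIs.

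Among epithelial clusters of TAK-981 1, the highest summed level, 659 CPM, was in cluster 10 (Alb, Slc17a1, Agt, Hp and Ambp), which had 42.9 CPM in TAK-981 2 and 23.5 CPM in vehicle 1. Cluster 3, led by histone genes, had 26.1 and 16.5 CPM under TAK-981 and 30.6 and 8.77 CPM under vehicle, so TAK-981 1 did not stand apart there, on 9 UMIs. Acinar cells had 1561 and 975 CPM in TAK-981 libraries, where 11 of 12 macrophage markers were detected in each, and 36.2 CPM in vehicle 1 on 2 UMIs, where 2 were detected.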
